A study of Rattus norvegicus with 16 samples.

Results

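Transcripts of 7 matrix metalloproteinases (Mmp2, Mmp3, Mmp9, Mmp10, Mmp12, Mmp13 and Mmp14) and 3 of their tissue inhibitors (Timp1, Timp2 and Timp3) were followed in the normal distal colon of 16 male rats. These 10 genes were found on the arrays by the RefSeq transcript assigned to each probe, which gave 11 of the 30367 probes, 2 for Mmp2 and 1 for each other gene. In all, 15159 gene symbols were represented. Tissue was taken at 97 days of age from rats of an (ACIxF344)F1 cross, in 4 groups of 4. Wildtype rats carried no mutant Apc allele, whereas Pirc rats (Pirc/+) were heterozygous for a nonsense allele of Apc, the gatekeeper gene of colonic neoplasia. In each genotype 1 group was untreated and 1 had received 4% dextran sodium sulfate (DSS), a polymer that injures the colonic epithelium, in the drinking water from day 40 to 47 and again from day 54 to 61, so that sampling fell 36 days after the last exposure. All 16 rats shared the (ACIxF344)F1 background, and the strain label of the wildtype rats also carries the word Pirc although their genotype is given as Apc wild type. The Pirc mutation is in the germ line and so present in all cells. The labels give the source as normal distal colon, and for untreated Pirc rats the methods of the study describe epithelium scraped from the luminal surface.

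Matrix metalloproteinases are zinc endopeptidases, secreted or held at the cell surface, that cleave collagens, proteoglycans and other proteins of the extracellular matrix. They are made as inactive proenzymes, are switched on by plasmin or by other family members, and are blocked by TIMPs that bind their active site. In the colon the family is known from ulceration and wound repair, where fibroblasts, macrophages, neutrophils and epithelial cells each supply different members.

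Several inducible members lie side by side. On rat chromosome 8 the RefSeq annotation lists 10 Mmp genes in the order Mmp13, Mmp12, Mmp1b, Mmp3, Mmp1, Mmp10, Mmp8, Mmp27, Mmp20 and Mmp7, with no other protein-coding gene starting between the first and the last. A promoter window (250 bases before to 50 after the start, RefSeq, build GRCr8) was given for 7 of the 10 members, and Mmp2, Mmp9 and Mmp14 are named only. The 100 bases before the start are shown for Mmp13, Mmp12, Mmp3 and Mmp10, because they share a motif, and for Timp1 as an inhibitor. The other Mmp genes of the cluster were not examined singly. Capitals mark matches to TGANTCA, the pattern bound by the AP-1 family of transcription factors, read on both strands.
Mmp13, chr8:12782729-12782828, plus strand: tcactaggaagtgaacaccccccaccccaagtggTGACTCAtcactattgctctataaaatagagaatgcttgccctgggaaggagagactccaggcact
Mmp12, chr8:12866552-12866651, plus strand: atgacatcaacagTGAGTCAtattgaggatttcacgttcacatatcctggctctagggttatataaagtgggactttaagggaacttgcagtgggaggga
Mmp3, chr8:12925181-12925280, plus strand: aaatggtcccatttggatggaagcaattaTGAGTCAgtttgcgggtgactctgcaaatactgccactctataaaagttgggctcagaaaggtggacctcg
Mmp10, chr8:12974607-12974706, plus strand: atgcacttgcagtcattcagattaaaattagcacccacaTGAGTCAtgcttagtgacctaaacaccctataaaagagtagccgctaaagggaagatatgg
Timp1, chrX:3771123-3771222, minus strand: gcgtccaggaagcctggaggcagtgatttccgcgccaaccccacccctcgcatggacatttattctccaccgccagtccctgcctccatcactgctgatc

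The AP-1 pattern began 66 bases before the start in Mmp13, 87 in Mmp12, 71 in Mmp3 and 61 in Mmp10. None of the 3 Timp windows held it. Over all 33469 rat windows, 7.33% held the pattern and 2.47% held it within the last 100 bases before the start. The letters TATAAA on the coding strand stood 47, 39, 32 and 33 bases before the start of Mmp13, Mmp12, Mmp3 and Mmp10, with a second match in Mmp10 at 196, and did not overlap the AP-1 match. They occurred in 8.8% of all windows and, within the last 100 bases, in 3.86%. The core AGGAAG of ETS factors, read on both strands, was found at 206 in Mmp3, at 95 in Mmp13 and at 230 and 94 in Timp1, and in 34.51% of all windows. A match in these letters describes the sequence and does not show binding.

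Each RNA was hybridized to 1 single-colour Agilent array, with 8 arrays on each of 2 slides and 2 rats of every group per slide. The 75th percentile of the signals lay between 875 and 2194 on the 16 arrays, and 71.1 to 80.3% of spots were well above background. Every group kept to its own column of array positions on both slides, so that column and group cannot be told apart. All 8 epithelial markers looked for (among them Epcam, Vil1 and Cdx2) were well above background on every array, as the label of colon requires. The 3 rats highest in smooth muscle markers were Pirc DSS rat 16, wildtype untreated rat 25 and wildtype DSS rat 26. The tissue is a mixture of cell types, and fewer cells of a type and less RNA per cell cannot be told apart.

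After DSS, most of these proteases rose while the inhibitors moved little. Averaged over both genotypes, Mmp2, Mmp9, Mmp10, Mmp12, Mmp13 and Timp1 were called higher (limma, Benjamini-Hochberg adjusted p of 0.05 or less over all 30367 probes) and none of the 10 genes was called lower, where 10.2% of all probes were called higher and 6.99% lower. The median log2 difference was 2.09 over the 7 proteases and -0.09 over the 3 inhibitors, beside 0.06 over all probes. With signals below the detection limit raised to a common floor, 3 genes were called, and Mmp9, Mmp10 and Timp1 were not. In the values that follow, a level is the log2 signal relative to the 75th percentile of its array, which serves to compare rats for 1 probe and not to compare probes with each other. Differences are given on the log2 scale as value ± SE.

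**Figure D1:**
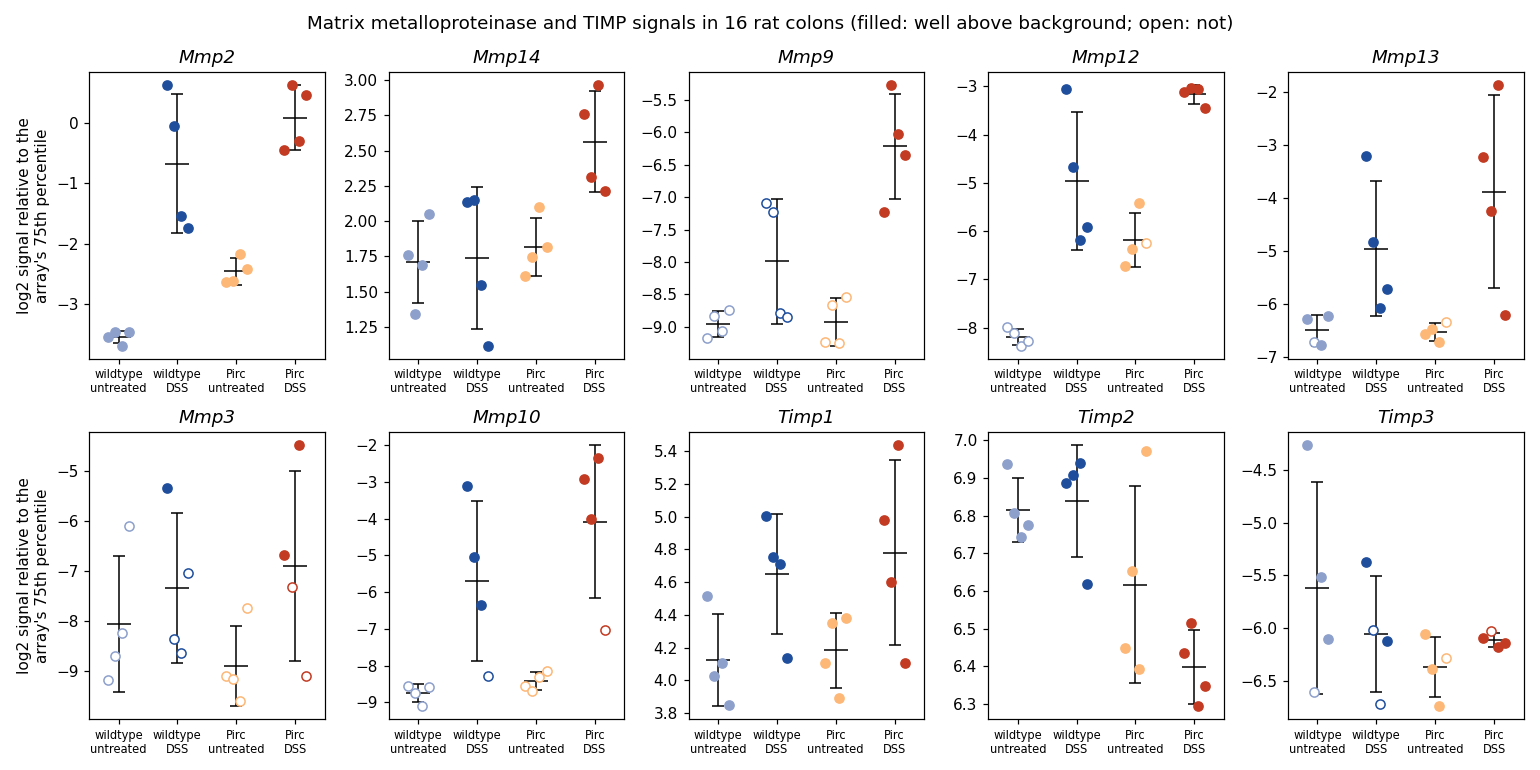
Levels of the 10 genes (log2 signal over the 75th percentile of each array), with 1 point for each of 16 rats, group mean (long bar) and SD (whiskers, n = 4). Filled points were well above background and open points were not. The vertical scale differs between panels. All 4 Pirc DSS rats lay above all 4 untreated Pirc rats for Mmp2, Mmp14, Mmp9, Mmp12, Mmp13 and Mmp10.

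Mmp2, the gelatinase made chiefly by fibroblasts, gave the smallest adjusted p of the set for DSS over both genotypes (limma adjusted p = 3.96e-05). Its level was -3.54, -3.47, -3.69 and -3.47 in untreated wildtype rats and 0.63, -0.05, -1.54 and -1.73 in wildtype DSS rats. In Pirc rats it was -2.63, -2.61, -2.17 and -2.42 without DSS and -0.44, 0.63, -0.29 and 0.46 after DSS. The treated and untreated rats did not overlap in either genotype. The difference was 2.87 ± 0.42 in wildtype rats (limma adjusted p = 0.00323) and 2.55 ± 0.42 in Pirc rats (limma adjusted p = 0.00116), that is 7.32-fold and 5.85-fold. The second Mmp2 probe moved the same way, by 3.23 ± 0.45 and 3.24 ± 0.45, and since it was not well above background in any untreated wildtype rat its change there is given as at least 9.05-fold. Such a bound sets the dim group, on each array, at the lowest signal well above background or at its own signal if higher. An adjusted p printed beside a bound tests the fitted difference and not the bound. A signal above that level can still fail the background test, and the common floor, which is the highest of these levels over the arrays, gives smaller differences where stated.

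Mmp14, the membrane-anchored protease that activates pro-Mmp2, was well above background in all rats and shifted far less. Its level in Pirc rats was 1.61, 1.75, 2.10 and 1.81 without DSS and 2.76, 2.32, 2.97 and 2.21 after DSS. In wildtype rats it was 1.76, 1.34, 1.69 and 2.05 without and 2.14, 2.15, 1.55 and 1.12 with DSS. The Pirc groups were thus apart and the wildtype groups overlapped. The difference was 0.75 ± 0.24 in Pirc rats, which just missed the threshold (limma adjusted p = 0.0535), and 0.03 ± 0.24 in wildtype rats (limma adjusted p = 0.965). The Pirc difference passed without Pirc DSS rat 24 (0.87, limma adjusted p = 0.0348) or wildtype DSS rat 26, without the 3 rats highest in smooth muscle markers, and with the filter on dim probes, normexp, median scaling or averaged probes, at limma adjusted p from 0.0283 to 0.0496.

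Mmp9, the gelatinase stored by neutrophils, was not well above background in any untreated rat nor in any wildtype DSS rat, and was well above it in all 4 Pirc DSS rats. Its level there was -7.23, -5.27, -6.02 and -6.36, against -9.24, -8.67, -9.25 and -8.54 in untreated Pirc rats. The wildtype rats stood at -9.17, -8.84, -9.06 and -8.74 without DSS and at -7.08, -7.24, -8.79 and -8.86 with it. By the bound, Mmp9 rose at least 1.89-fold after DSS in Pirc rats (limma adjusted p = 0.000927 for the fitted difference). This call and the one over both genotypes (1.83 ± 0.31, limma adjusted p = 0.000808) rest on signals near background: with normexp, another model of the background, the Pirc difference was 0.65 (limma adjusted p = 0.0712), and with dim signals raised to a common floor it was 0.30 (limma adjusted p = 0.248).

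Mmp12, the macrophage elastase, was even among the Pirc DSS rats. Its level was -3.12, -3.03, -3.06 and -3.45 there and -6.71, -6.37, -5.41 and -6.24 in untreated Pirc rats. In wildtype rats it was -3.06, -4.67, -6.19 and -5.91 after DSS and -7.99, -8.11, -8.37 and -8.28 without, the latter all too dim to be well above background. Treated and untreated rats were apart in both genotypes. The difference in Pirc rats was 3.02 ± 0.51, or 8.10-fold (limma adjusted p = 0.00125), and the rise in wildtype rats was at least 3.83-fold (limma adjusted p = 0.00421). The wildtype call was lost with normexp (0.94, limma adjusted p = 0.0864) and with the common floor (1.27, limma adjusted p = 0.24).

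Mmp13, an interstitial collagenase, varied widely among DSS rats. In Pirc DSS rats its level was -3.23, -4.23, -1.87 and -6.19, with rat 24 close to the untreated Pirc rats at -6.56, -6.47, -6.72 and -6.33. In wildtype rats it was -3.22, -4.83, -6.06 and -5.72 after DSS and -6.27, -6.71, -6.77 and -6.21 without. No treated rat overlapped the untreated rats of its genotype, although rats 24 and 22 exceeded the nearest by little. The difference was 2.64 ± 0.73 in Pirc rats (limma adjusted p = 0.0248) and 1.53 ± 0.73 in wildtype rats (limma adjusted p = 0.305). Without Pirc DSS rat 20 the Pirc difference was 1.97 and its adjusted p 0.0808 by limma. The call was also lost without rat 11, 12, 15 or 19, without the 3 rats highest in smooth muscle markers (limma adjusted p = 0.0526), with the common floor (limma adjusted p = 0.0632) and in a fit of the compared groups alone (limma adjusted p = 0.0746).

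The stromelysins Mmp10 and Mmp3, which cleave proteoglycans and activate other proenzymes, were too dim to be well above background in every untreated rat. Mmp10 stood at -2.92, -4.01, -2.35 and -7.03 in Pirc DSS rats and at -8.56, -8.70, -8.30 and -8.14 in untreated Pirc rats. In wildtype rats it was -3.1, -5.03, -6.34 and -8.30 after DSS and -8.57, -8.74, -9.10 and -8.57 without. In each genotype 3 of the 4 DSS rats were well above background, Pirc rat 24 and wildtype rat 26 being the exceptions. The rise was at least 8.32-fold in Pirc rats (limma adjusted p = 0.00838) and at least 2.30-fold in wildtype rats, where it did not pass (limma adjusted p = 0.107). It passed in wildtype rats when rat 26 was left out (limma adjusted p = 0.0222), and in Pirc rats the call was lost with the common floor (2.35, limma adjusted p = 0.0659).

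Mmp3 was well above background only in Pirc DSS rats 12 and 20, at -6.69 and -4.49, and in wildtype DSS rat 14, at -5.35. The other Pirc DSS rats stood at -7.32 and -9.10 and the other wildtype DSS rats at -8.37, -8.64 and -7.04. Untreated rats ranged from -9.60 to -7.75 in the Pirc group and from -9.19 to -6.10 in the wildtype group, so that treated and untreated rats overlapped in both genotypes. Its difference over both genotypes was 1.36 ± 0.66 (limma adjusted p = 0.199). Rats 20 and 14, the highest in Mmp3, were also the highest of their groups in Mmp13 and Mmp10.

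Of the inhibitors, Timp1, the inducible and soluble member, was the one called. Its level was 4.51, 4.03, 4.10 and 3.85 in untreated wildtype rats and 5.0, 4.75, 4.71 and 4.14 in wildtype DSS rats. In Pirc rats it was 4.11, 4.35, 3.89 and 4.38 without DSS and 4.98, 4.60, 5.44 and 4.11 after it. Groups overlapped in both genotypes through the lowest DSS rat of each, rats 26 and 24. The difference over both genotypes was 0.56 ± 0.18, or 1.48-fold (limma adjusted p = 0.0481), and neither genotype passed alone. The call was lost on leaving out any of 12 of the 16 rats, with adjusted p from 0.0533 to 0.102 by limma, and with quantile normalization (limma adjusted p = 0.0508).

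Timp2, which both inhibits and, with Mmp14, helps to activate Mmp2, and Timp3, which is bound to the matrix, did not pass the test for DSS. Timp2 ranged from 6.3 to 6.97 over the 16 rats, and its DSS difference over both genotypes was -0.10 ± 0.10, with a 95% confidence interval from -0.30 to 0.11. With quantile normalization it was called lower (-0.20, limma adjusted p = 0.0375). That setting moved the median of all probes by -0.14 in the same comparison. In Pirc rats alone Timp2 was also called lower with quantile normalization (-0.41, limma adjusted p = 0.00581), where the median of all probes moved by -0.14. Without that setting the Pirc difference was not called. Whether the shift of the median accounts for these 2 calls was not tested. Timp3 was dim, well above background in 11 of 16 rats, with its highest level of -4.26 in untreated wildtype rat 13. Its DSS difference was -0.09 ± 0.28, with an interval from -0.68 to 0.50.

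Taken by genotype, 5 of the 10 genes were called higher after DSS in Pirc rats (Mmp2, Mmp9, Mmp10, Mmp12 and Mmp13) against 8.14% of all probes, and 2 in wildtype rats (Mmp2 and Mmp12) against 2.94%. None was called lower, against 6.51% and 0.899% of all probes. In Pirc rats 6 genes had all DSS rats above all untreated rats, and in wildtype rats 4 had (Mmp2, Mmp10, Mmp12 and Mmp13), where 8.88% and 8% of all probes did so. The 2 comparisons have no rats in common but share the estimate of the spread.

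The DSS effect itself was not found to differ between the genotypes for any member. In the test of that difference 0 of 10 genes were called by limma, 1 had an unadjusted p under 0.05, and 0.0428% of all probes were called. That gene was Mmp9, with a difference of 1.75 ± 0.61 (limma adjusted p = 0.337), which rests on wildtype signals that were not well above background. For Mmp14 it was 0.72 ± 0.35 (limma adjusted p = 0.483). For Mmp2 it was -0.32 with an interval from -1.60 to 0.95. For Mmp12 no exact value can be given, since untreated wildtype rats were not well above background: the fitted difference was -0.21, and 1.54 with the common floor.

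**Figure D2:**
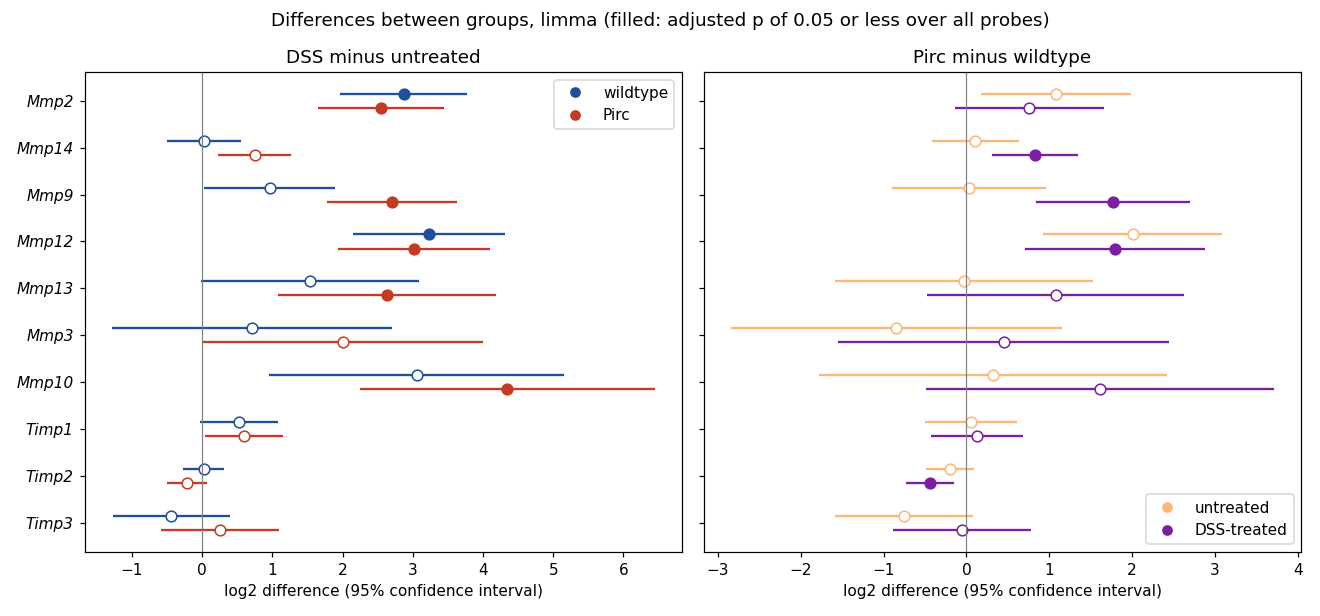
Log2 differences with 95% confidence intervals from limma for the 10 genes, DSS minus untreated (left, by genotype) and Pirc minus wildtype (right, by treatment). Filled points had an adjusted p of 0.05 or less over all probes. Mmp2 and Mmp12 were called after DSS in both genotypes, and no gene was called between the untreated genotypes.

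In wildtype DSS rats the levels separated with the slide. Rats 14 and 18, on slide 1, were higher than rats 22 and 26, on slide 2, for Mmp2, Mmp10, Mmp12, Mmp13, Mmp14 and Timp1. The same held for Mmp9, not well above background in any of them, and for the dim Timp3. Within slides, the wildtype DSS difference was 3.80 on slide 1 and 1.95 on slide 2 for Mmp2, 4.19 and 2.28 for Mmp12, and 4.59 and 1.52 for Mmp10, the last 2 genes being too dim in untreated wildtype rats for exact values. Mmp14 gave 0.60 and -0.54. In Pirc rats the same differences were 2.72 and 2.38 for Mmp2 and 3.47 and 2.57 for Mmp12. Whether slide or rat set the wildtype values was not tested, as each slide held 2 rats of a group. With slide as a block in the fit, the counts of members called were 6, 5 and 2 over both genotypes, in Pirc rats and in wildtype rats, as without it. Such a block shifts all groups on a slide alike, so these counts do not bear on a split within a single group.

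Between the genotypes, the untreated rats gave no call among the 10 genes nor among all 30367 probes (0% of probes), and 2 members had an unadjusted p under 0.05 by limma. These were Mmp12 and Mmp2, for which all 4 untreated Pirc rats lay above all 4 untreated wildtype rats, as did 4.69% of all probes. By the bound described for the second Mmp2 probe, Mmp12 was at least 1.64-fold higher (limma adjusted p = 0.225). No untreated wildtype rat was well above background for it, and a higher floor would lower this value. Mmp2 differed by 1.08 ± 0.42, or 2.12-fold (limma adjusted p = 0.388). Averaged over both treatments Mmp12 (1.90 ± 0.36, limma adjusted p = 0.00377) and Mmp2 (0.92 ± 0.30, limma adjusted p = 0.0462) were called higher in Pirc rats and Timp2 lower (-0.32 ± 0.10, limma adjusted p = 0.0319), where 9.26% of probes were called higher and 8.27% lower. Leaving out any of 13 rats for Mmp2, or of 11 for Timp2, took the limma adjusted p past 0.05. The Mmp12 call was lost with normexp (0.47, limma adjusted p = 0.0939) and with the common floor (1.01, limma adjusted p = 0.0743). The second Mmp2 probe gave 0.90 ± 0.32 (limma adjusted p = 0.0657).

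After DSS, 3 proteases were called higher in Pirc than in wildtype rats, and 1 inhibitor lower, where 9.47% of all probes were called higher and 8.76% lower. By the bound, Mmp9 was at least 1.40-fold higher (limma adjusted p = 0.0126 for the fitted difference). Mmp12 was 3.46-fold higher (1.79 ± 0.51, limma adjusted p = 0.0248), and Mmp14 was 1.77-fold higher (0.83 ± 0.24, limma adjusted p = 0.0303). Timp2 was lower by a factor of 1.36 (-0.44 ± 0.13, limma adjusted p = 0.0354). For Mmp14 every Pirc DSS rat lay above every wildtype DSS rat and for Timp2 every one lay below, as did 9.62% and 9.13% of all probes. The 3 protease calls share the split among wildtype rats described above. Within slides 1 and 2 the difference was 0.79 and 2.79 for Mmp12 and 0.39 and 1.26 for Mmp14. For Mmp9 it was 0.91 and 2.63, resting on wildtype signals not well above background. Timp2 gave -0.42 and -0.46. Leaving out any of 6 rats took the limma adjusted p of Timp2 to between 0.0641 and 0.0978, and median scaling took it to 0.0514. The Mmp12 and Mmp14 calls were each lost on leaving out any of 4 rats. In the same comparison 4 of 8 colon epithelial markers were called lower, with a median over the 8 of -0.50 beside -0.11 over all probes, as were 3 of 8 in Pirc rats over both treatments, and their part in these differences was not tested. Of the proteases and inhibitors, the count called in this comparison fell to 1 without rat 12, 20 or 22 and to 2 without rat 26. That count fell to 1 without the 3 rats highest in smooth muscle markers, and to 0 when limma was fitted to these groups alone. The Mmp9 difference was 0.09 with normexp (limma adjusted p = 0.768) and 0.30 with the common floor (limma adjusted p = 0.212).

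The balance of proteases and inhibitors was described rat by rat. Each gene was centred on its mean over the 16 rats, and the mean of the 3 inhibitors was taken from the mean of the 7 proteases. The result was -2.09, -1.14, -1.55 and -0.68 in untreated wildtype rats and -0.94, -0.84, -0.35 and -0.61 in untreated Pirc rats. It was 1.56, 0.56, -0.34 and -0.30 in wildtype DSS rats and 1.70, 1.77, 2.44 and 0.80 in Pirc DSS rats. Both Pirc groups were apart, and all wildtype DSS rats lay above all untreated wildtype rats, the lowest of the former at -0.34 and the highest of the latter at -0.68. The wildtype groups overlapped with normexp (lowest DSS rat -0.31, highest untreated rat -0.16) and with the common floor (-0.54 and -0.27). The protease term carried this, with group means from -1.28 to 1.68, while the means of the inhibitor term lay between -0.21 and 0.12. These values repeat the single-gene results and were given no test.

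**Figure D3:**
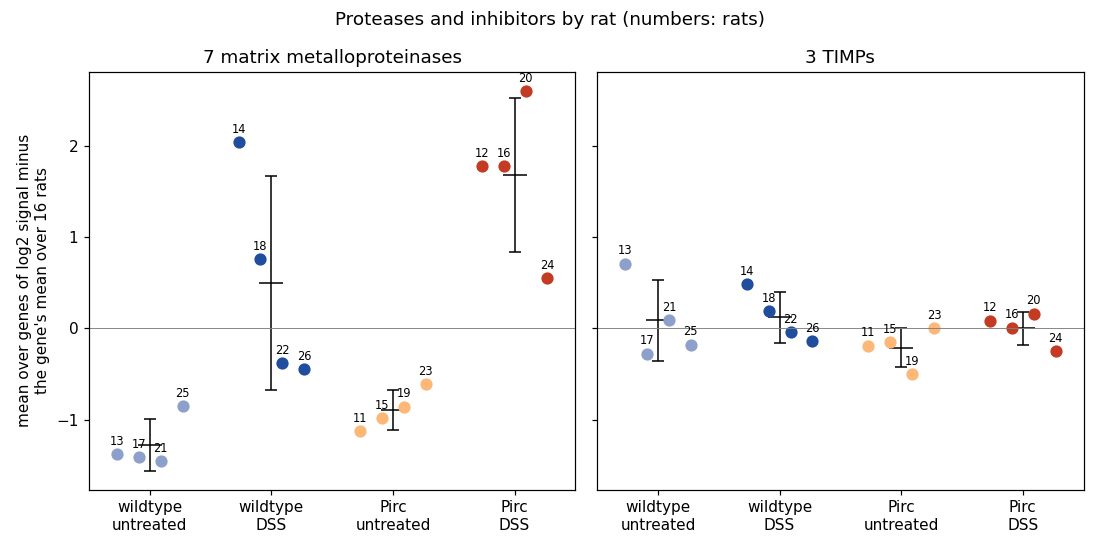
Mean over the 7 proteases (left) and over the 3 TIMPs (right) of the log2 signal minus the mean of the gene over 16 rats, by group, with the rat number at each point, group means (long bars) and SD (whiskers, n = 4). Both panels share the vertical scale. The protease mean reached 2.60 in Pirc DSS rat 20, while the TIMP mean stayed between -0.51 and 0.71 in all rats.

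Among the other metalloproteinases and Timp4, 3 of 15 measured genes were called higher and 2 lower after DSS over both genotypes, beside 10.2% and 6.99% of all probes. Mmp7 (matrilysin, an epithelial protease) rose by 4.26 on the log2 scale (limma adjusted p = 7.18e-06), Mmp23 by 1.98 and Mmp28, an epithelial member, by 1.30. Mmp1 and Timp4 were lower, with differences of -0.43 and -0.62. Mmp7 was the one gene of this list called higher in Pirc than in wildtype DSS rats (4.52, limma adjusted p = 0.000168). Of the cluster on chromosome 8, then, Mmp7, Mmp10, Mmp12 and Mmp13 were called higher, Mmp1 lower, and Mmp3, Mmp8, Mmp20 and Mmp27 were not called. Mmp3 was well above background on 3 arrays, Mmp8 on 1, and Mmp20 and Mmp27 on none. Mmp1b was not among the measured genes.

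Of the genes that activate or restrain the proteases, chiefly the plasmin system, 7 of 10 reported were higher after DSS over both genotypes (10.2% of all probes) and none was lower (6.99%). Those that restrain rose beside those that activate. The broad protease inhibitor A2m differed by 4.33, and the serpins that block plasminogen activators by 3.53 (Serpinb2) and 3.1 (Serpine2). The activators Plat and Plau differed by 3.39 and 1.65. The 3 not called were Bsg (-0.21), Furin (0.27) and Plg (0.13).

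Inducers of Mmp genes were raised in part, with 7 of 13 higher after DSS over both genotypes (10.2% of all probes) and none lower (6.99%). The cytokines Il1b (4.69), Il1a (4.48), Tnf (3.29) and Tgfb1 (2.48) were called, together with the AP-1 member Fosl1 (3.08) and with Ets1 (1.55). The other AP-1 genes were not called, with differences of -0.10 for Fos, -0.11 for Jun, -0.05 for Junb and 0.05 for Fosl2. Il6 was well above background on no array. Between Pirc and wildtype DSS rats, Il1a (3.39), Tnf (2.95) and Tgfb1 (1.06) were called higher.

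All 11 measured matrix genes, substrates of these proteases, were higher after DSS over both genotypes, beside 10.2% of all probes, by 1.69 (Col1a2) to 4.04 (Vcan, versican). Tenascin C (Tnc) differed by 3.34, decorin (Dcn) by 3.06 and elastin (Eln), the substrate of Mmp12, by 2.99. None of the 11 was called between Pirc and wildtype DSS rats.

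**Figure D4:**
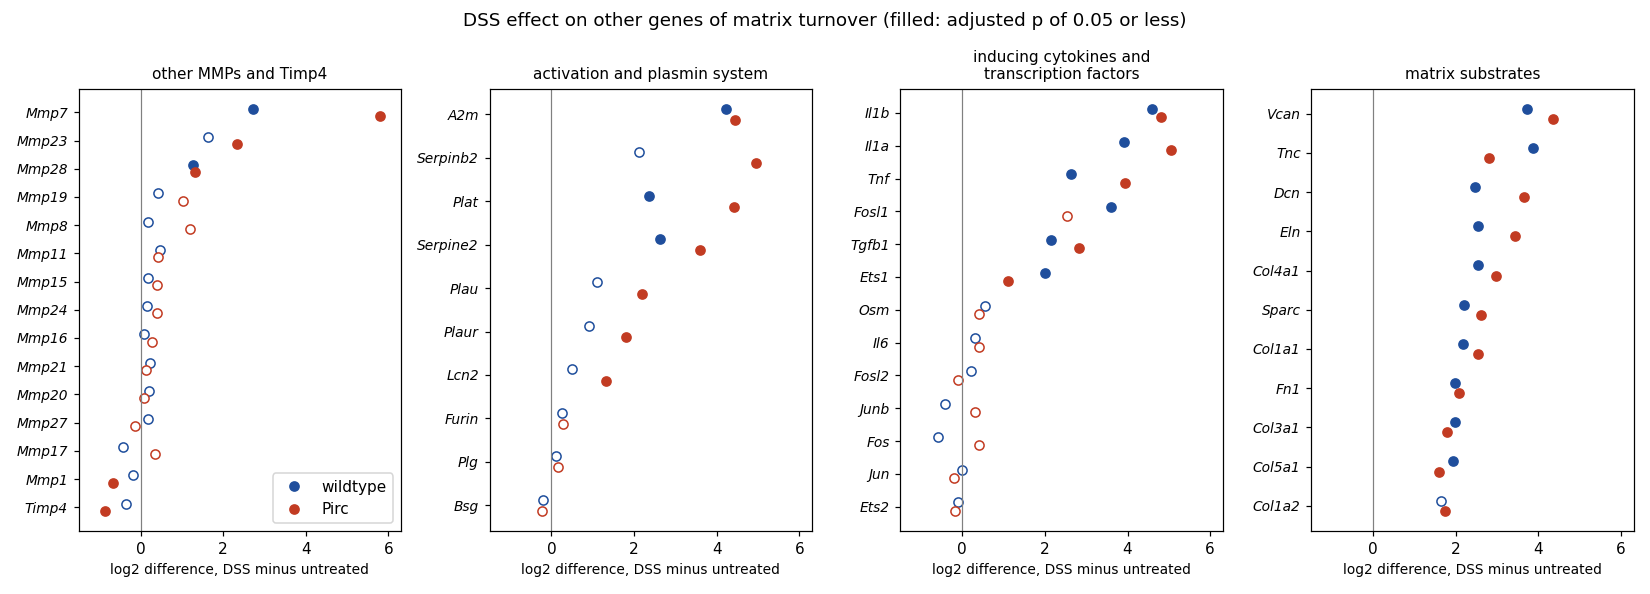
Log2 difference, DSS minus untreated, by genotype, for genes of 4 lists: other metalloproteinases with Timp4, the activation and plasmin system, inducing cytokines and transcription factors, and matrix substrates. Filled points had an adjusted p of 0.05 or less (limma, all probes). Among matrix substrates all Pirc values and all wildtype values but that of Col1a2 were called.

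Markers of several cell types also differed after DSS. Over both genotypes, where 10.2% of all probes were called higher and 6.99% lower, 5 of 5 fibroblast markers were called higher, 3 of 6 for macrophages, 3 of 5 for neutrophils, 2 of 4 for endothelium and 5 of 6 for squamous epithelium, whereas 0 of 8 colon epithelial markers were called. For smooth muscle 1 of 6 was higher and 1 lower. The fibroblast marker Dcn also counts among the matrix genes, and the fibroblast markers Lum and Thy1 were well above background on 3 and 4 of the 16 arrays. As the mean of markers centred over the 16 rats, fibroblast markers ran from 1.37 to 2.31 in Pirc DSS rats and from -1.62 to -0.61 in untreated Pirc rats. In wildtype DSS rats they stood at 2.17, 1.20, -0.41 and 0.12, with rats 14 and 18 again the higher, against -1.65 to -0.87 in untreated wildtype rats. Summed over the fibroblast markers on the linear scale (signal relative to the 75th percentile of the array), the ranges were 1.64 to 2.37 in Pirc DSS rats, 0.507 to 2.24 in wildtype DSS rats, 0.138 to 0.285 in untreated Pirc rats and 0.143 to 0.282 in untreated wildtype rats.

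Neutrophil markers, led by S100a8 (3.57) and S100a9 (3.0), ran from 0.94 to 2.52 in Pirc DSS rats and from -0.59 to 0.64 in wildtype DSS rats, and their summed signal from 9.16 to 37.6 and from 0.906 to 4.39. Untreated rats had summed neutrophil signals of 0.996 to 1.69 (Pirc) and 0.351 to 0.709 (wildtype). Elane, a granule gene of maturing neutrophils, was well above background on no array. Macrophage markers differed less. Their centred mean ran from 0.35 to 0.83 in Pirc DSS rats and from -0.47 to -0.13 in untreated Pirc rats. In wildtype rats it ran from -0.21 to 0.82 with DSS and from -0.61 to -0.23 without. Their summed signals overlapped, at 8.93 to 13.9 in Pirc DSS rats and 10.5 to 14.6 in untreated Pirc rats. In wildtype rats these sums were 8.24 to 15.3 with DSS and 8.66 to 11.5 without. Cd68, a lysosomal marker of macrophages, differed by 1.61, whereas Csf1r differed by 0.27 and was not called.

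Squamous markers, which the colon does not usually express, were led by Krt13 (8.74, well above background on 10 of 16 arrays). Their centred mean was 2.15 to 4.15 in the 4 Pirc DSS rats and 0.13, 1.17, 3.48 and -2.07 in wildtype DSS rats, against -2.32 to -1.55 in all untreated rats. Summed squamous signals were 9.24 to 55.8 in Pirc DSS rats, 0.161 to 23.4 in wildtype DSS rats and 0.133 to 0.240 in untreated rats. Wildtype rat 22, the highest of its group in these markers, was not the highest in any protease. Wildtype rat 26 stood at the untreated level of these markers. It lay above every untreated wildtype rat for Mmp2 (-1.73), Mmp10, Mmp12 (-5.91) and Mmp13. For Mmp3 and Mmp9 it lay within their range and for Mmp14 (1.12) below it. Among Pirc DSS rats, rat 20 was highest in these markers (4.15) and in the protease mean (2.60). Rat 24 was next in these markers (3.98) and lowest in the protease mean (0.55). Krt4, Krt5 and Krt14 were well above background on all 16 arrays, those of untreated rats included, and Ivl was so on none. The part of any of these cell types in the protease differences was not tested.

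For members well above background on all arrays, the genes with the most similar pattern over the 16 rats were listed among 9974 others. Mmp2 was nearest to Serping1 (Pearson r = 0.991), Col18a1 (0.982) and C1r (0.981). The nearest for Mmp14 were Golt1b, Vangl1 and Lpgat1, with r from 0.891 to 0.903, and for Timp1 Hspb9, Anxa8 and Lmna, with r from 0.886 to 0.900. For Timp2 they were Pmvk, Ankrd13c and Ndfip2, with r from 0.891 to 0.910. The points share the split into treated and untreated groups, and these values are descriptions with no test.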

How the data were processed

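The deposited files are Feature Extraction (version 10.7.3.1) output of 16 single-colour arrays, annotated on rn4. The processed intensity of each spot was used as deposited, already background-subtracted by the authors' scanner software. Partek is named in the submitters' processing notes and was not used here. Control spots (4259) and outlier-flagged spots were left out. Levels are log2 intensities minus the log2 of each array's 75th percentile, with repeated spots averaged per probe. RefSeq accessions named 18006 of 30367 probes. A probe was well above background where most of its spots were. Where a group was dim on every array, folds of the 10 genes are lower bounds against the lowest signal well above background. The adjusted p beside them tests the fitted difference. Values for genes of the other lists are fitted differences without such bounds. limma 3.58.1 (R 4.3.3) was fitted to all arrays with 1 mean per group, and was tested on simulated data. A call needed an adjusted p of 0.05 or less. The brighter Mmp2 probe stands for the gene. All 10 members are named, with up to 6 called genes of each other list, and genes not called were named after their values were seen. One gene of the activation list is not reported here. The members and lists were chosen with earlier results of these data known. Alternatives were quantile normalization, normexp (offset 50), a filter and a floor for dim probes, median scaling, slide as a block, outlier spots kept, compared groups only, no moderation, a factor of 2, averaged probes, and each rat left out. Leaving out the 3 rats highest in smooth muscle markers was added after seeing the data. The number of arrays limits the precision.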

Additional observations from a re-analysis of the deposited data

Results flagged for a closer look

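Among the 40 sets of 4 rats checked (10 genes in 4 groups), 1 held a rat far from the others. Timp2 in wildtype DSS rat 26 was 6.62 on the log2 scale, below the nearest of its group at 6.89, a gap of 0.84 of the group's range. Chance alone gives about 1 in 20 such sets, or 2 of 40.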

How the results depend on the processing

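Over both genotypes 6 members were called after DSS, 5 in Pirc and 2 in wildtype rats, 0 for the difference of the DSS effects, and 3, 0 and 4 for the Pirc effect over both treatments, in untreated and in DSS-treated rats. With normexp the counts became 1 in wildtype rats and 1 for Pirc over both treatments. Normexp also lost the Mmp9 call over both genotypes, in Pirc rats and between DSS-treated genotypes, and gained that of Mmp14 in Pirc rats. With the common floor the DSS counts became 3 for both genotypes together, 2 for Pirc and 1 for wildtype, and that for Pirc over both treatments 1. Filtering dim probes gave 5 for Pirc over both treatments. Requiring a factor of 2 gave 1 there and 2 in DSS-treated rats. Fitting the compared groups alone gave 0 in DSS-treated rats, and leaving out the 3 rats highest in smooth muscle markers, chosen after seeing the data, gave 1. Quantile normalization, median scaling, the slide as a block, kept outlier spots, no moderation and averaged probes left each count within 1.5 times its value. For the settings before these, the counts not given also stayed within that range. With 1 rat left out the DSS counts ranged from 5 to 7 for both genotypes together, 4 to 7 for Pirc and 2 to 3 for wildtype, stayed at 0 for the difference and for untreated rats, and ranged from 1 to 3 for Pirc over both treatments and from 1 to 5 in DSS-treated rats. The protease minus inhibitor mean was -0.68, 1.68, -1.36 and 0.37 in untreated Pirc, Pirc DSS, untreated wildtype and wildtype DSS rats. It became -0.34, 0.76, -0.52 and 0.097 with normexp, and -0.39, 1.11, -0.80 and 0.080 with the common floor. The cause of these changes was not tested. No paired analysis was possible because the groups share no rat numbers, and slide was the block that was run.

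Directions reversed only for values that were not called. With quantile normalization, Timp3 after DSS in Pirc rats became -0.083 and the difference of the DSS effects for Timp1 -0.032. With normexp, Timp3 after DSS over both genotypes became 0.032, the difference for Mmp12 0.74, Mmp9 for Pirc over both treatments -0.091 and in untreated rats -0.27, Mmp10 in untreated rats -0.26, and Mmp3 in DSS-treated rats -0.036. With the common floor, Mmp3 after DSS in wildtype rats became -0.040 and the difference for Mmp12 1.54. With outlier spots kept, Mmp13 in untreated rats became 0.044. Without the 3 rats highest in smooth muscle markers, Mmp3 and Timp1 for Pirc over both treatments became 0.25 and -0.0065, and Mmp13 and Timp1 in untreated rats 0.063 and -0.032.

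With 1 rat left out, the DSS effect over both genotypes ranged from -0.26 to 0.13 for Timp3. In wildtype rats it ranged from -0.77 to 0.012 for Timp3, from -0.11 to 0.24 for Mmp14 and from -0.011 to 0.096 for Timp2. The difference of the DSS effects ranged from -0.15 to 0.30 for Timp1, from -0.62 to 0.42 for Mmp12 and from -0.68 to 0.11 for Mmp2. The Pirc effect over both treatments ranged from -0.60 to 0.17 for Mmp3 and from -0.015 to 0.21 for Timp1. In untreated rats it ranged from -0.10 to 0.14 for Mmp9, from -0.12 to 0.063 for Mmp13, from -0.015 to 0.22 for Mmp14 and from -0.032 to 0.19 for Timp1. In DSS-treated rats it ranged from -0.27 to 0.18 for Timp3, from -0.36 to 1.18 for Mmp3 and from -0.088 to 0.35 for Timp1.

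Among the values of single members, 1019 kept their direction and side of the threshold with a rat left out, 55 lost the call, 12 gained one and 34 reversed. Under the other settings these numbers were 727, 36, 11 and 15. Normexp moved the median of all probes by 0.14 for DSS in Pirc rats and by -0.17 for Pirc in untreated rats, and quantile normalization by -0.15 for DSS in wildtype rats.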
